A study of Rattus norvegicus with 48 samples.

Results

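The microRNAs (miRNAs) miR-23a, miR-27a, miR-23b, miR-27b, and miR-24 were followed in rat liver through regeneration after partial hepatectomy (PHx), on an ethanol or a control diet and with inhibition of miR-21. Members were all rows of the deposited table named miR-23a, miR-23b, miR-27a, miR-27b, or miR-24 with any arm suffix. This rule found 5 of 143 miRNAs, each as 1 row without an arm suffix, written rno-miR-23a and so on, where rno stands for rat. In older naming, a name without a suffix stands for the abundant arm, which for these miRNAs is the 3p arm.

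Male Sprague-Dawley rats were pair-fed a liquid diet with ethanol (EtOH) or with carbohydrate in its place (CHO), and liver was taken before (0 h) or after 70% PHx. The 48 animals formed 16 groups of 3. Untreated animals of each diet were studied at 0, 6, 24, and 72 h, whereas treated animals were studied only at 0 and 24 h. Treatment was AM21, an antisense oligonucleotide of locked nucleic acid against miR-21, or saline alone. Both were injected before surgery and again right after it, so injected animals of 0 h had received the first dose only. RNA came from whole liver, in which fewer cells of a type and less RNA per cell cannot be told apart. The labels place the animals of 0 and 24 h in numbered sets 1 to 3 and those of 6 and 72 h in set 4, without saying what a set is. Against 0 h, time and set therefore cannot be told apart at 6 and 72 h, whereas 24 h against 0 h lies within sets 1 to 3 and 72 h against 6 h within set 4.

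The 5 miRNAs are made from 2 gene clusters, in each of which a miR-23, a miR-27, and a miR-24 hairpin lie in that order on one primary transcript. The miR-23 and miR-27 families are known for their abundance in endothelium and for promoting the sprouting of vessels. miR-27 also restrains genes of lipid metabolism in liver and fat. miR-23 is repressed by the transcription factor MYC and restrains glutaminase, the enzyme that opens glutamine use. miR-24 is known to restrain cell cycle genes. A miRNA finds its targets mainly through its seed, bases 2 to 8 from the 5′ end.

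The mature sequences show which members can share targets and which probes must tell near-identical molecules apart. They were taken from RefSeq (GRCr8), written 5′ to 3′ with the seed in capitals.
miR-23a: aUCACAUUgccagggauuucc
miR-23b: aUCACAUUgccagggauuacc
miR-27a: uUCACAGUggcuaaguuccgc
miR-27b: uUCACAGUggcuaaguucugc
miR-24: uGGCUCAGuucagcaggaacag

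miR-23a and miR-23b had the same seed and were identical at 20 of 21 bases, with the substitution U19A (miR-23a base, position from the 5′ end, miR-23b base). miR-27a and miR-27b also shared their seed and were identical at 20 of 21 bases, with C19U. No other rat mature sequence of the RefSeq table had either seed, and none shared the seed of miR-24. How far the probe of one paralog reads the other was not tested.

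On GRCr8, the first cluster lies on the minus strand of chromosome 19, with the mature miR-23a at chr19:40859778-40859798, miR-27a at chr19:40859614-40859634, and miR-24 of the Mir24-2 locus at chr19:40859481-40859502. The hairpins of this cluster span 389 bases, and no protein-coding gene of the annotation contains them. The second cluster lies on the minus strand of chromosome 17, with miR-23b at chr17:1819405-1819425, miR-27b at chr17:1819163-1819183, and miR-24 of the Mir24-1 locus at chr17:1818672-1818693. Its hairpins span 814 bases and lie within the bounds of the aminopeptidase gene Aopep. The mature miR-24 of both loci is one sequence, so the miR-24 row cannot be assigned to either cluster.

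The deposited values were log2 CPM, the log2 of counts scaled to one common library total, from the NanoString nCounter assay, which reads single molecules through coloured probes without amplification. Total counts per animal, recovered from the table, were 58168 to 267582, and 6 animals had fewer than 100000. All 5 members had counts in every animal. Per animal these were 571 to 2765 for miR-23a, 178 to 594 for miR-27a, 333 to 1824 for miR-23b, 934 to 4065 for miR-27b, and 81 to 430 for miR-24. The counting error of a single value was thus at most 11.1%, at the lowest miR-24 count, and 1.57% at the highest miR-27b count. Probes differ in efficiency, so each miRNA was compared only with itself across animals. As a check of the labels, the miR-21 count was 15 to 32 in the 12 AM21-treated animals and 120 to 9934 in the other 24 animals at 0 and 24 h.

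At 24 h after PHx, miR-23a, miR-27a, miR-23b, and miR-27b were all lower than at 0 h, whereas miR-24 did not pass the test. This comparison asked how the resected liver differed from the intact one over both diets and all treatments, with 18 animals at each time. miR-27b fell by 29.1%, miR-23b fell by 28.9%, and miR-23a and miR-27a each fell by 18%. Of the 5 members, 4 were called lower and 0 higher by limma at an adjusted p under 0.05, beside 22.4% of all 143 miRNAs called lower, 29.4% called higher, and 51.7% called in either direction. The median log2 fold change of the members was -0.29, and that of all miRNAs was 0.05.

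In log2 CPM, miR-27b was 13.84 to 14.45 at 0 h (median 14.12) and 13.36 to 13.93 at 24 h (median 13.62). The ranges thus met only at their edges. The log2 fold change was -0.50 (SE 0.06, limma adjusted p = 1.23e-07), and it was -0.46, -0.53, and -0.50 within sets 1, 2, and 3. miR-23b was 12.43 to 13.15 at 0 h (median 12.71) and 11.85 to 12.70 at 24 h (median 12.21). Its ranges overlapped somewhat more, and the log2 fold change was -0.49 (SE 0.07, adjusted p = 3.39e-06). The differences of miR-23b within sets were -0.57, -0.54, and -0.36.

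miR-23a, of the chromosome 19 cluster, ran from 13.10 to 13.94 at 0 h (median 13.48) and from 12.98 to 13.63 at 24 h (median 13.15). miR-27a of the same cluster ran from 11.06 to 11.83 (median 11.40) and from 10.84 to 11.33 (median 11.11). The ranges of miR-23a overlapped over much of their width, and those of miR-27a overlapped from 11.06 to 11.33. The log2 fold changes were -0.29 for each, with SE 0.07 and limma adjusted p = 0.00201 for miR-23a and SE 0.06 and adjusted p = 0.000203 for miR-27a. Within sets they were -0.28, -0.33, and -0.24 for miR-23a and -0.31, -0.26, and -0.29 for miR-27a.

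miR-24 ran from 10.31 to 10.98 at 0 h (median 10.67) and from 9.99 to 11.15 at 24 h (median 10.79). The 24 h range contained that of 0 h. The log2 fold change was 0.11 (SE 0.08, limma adjusted p = 0.263), with a 95% confidence interval of -0.06 to 0.28. Its differences within sets were -0.11, 0.24, and 0.21. The lowest value belonged to replicate 1 of the AM21-treated CHO group at 24 h, and without this animal the fold change was 0.16.

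**Figure D1:**
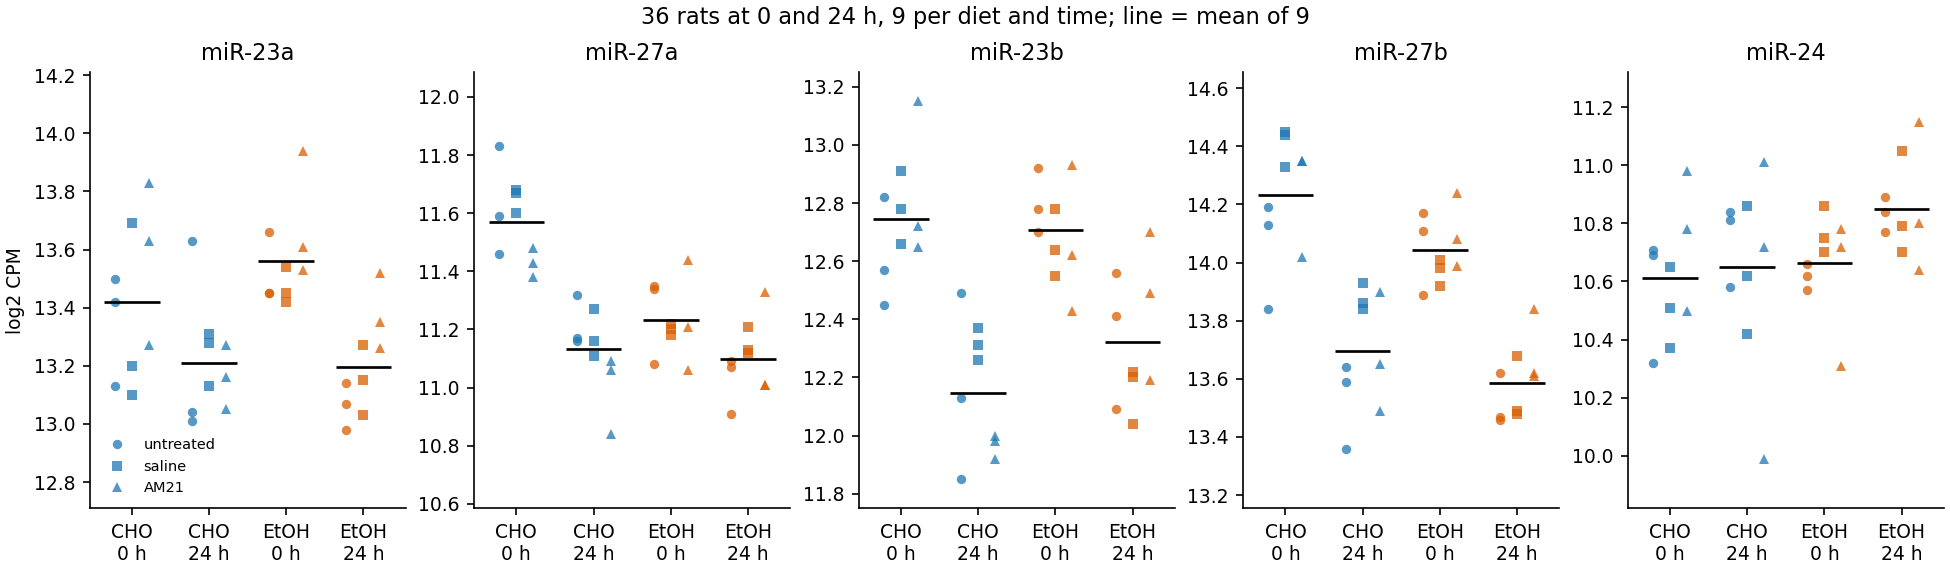
Log2 CPM of the 5 miRNAs in each of the 36 animals at 0 and 24 h, by diet (blue CHO, orange EtOH), with treatments as symbols and the mean of 9 animals as a line; panels have different offsets but the same span. At 24 h the 9 animals of a diet sit lower for miR-27b and miR-23b in both diets. For miR-27a the mean went from 11.57 to 11.13 in CHO-fed animals and from 11.23 to 11.10 in EtOH-fed animals. For miR-23a it went from 13.42 to 13.21 and from 13.56 to 13.20. No difference between the diets in these changes was called.

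Split by diet, with 9 animals at each time, miR-23b and miR-27b fell in both diets. In CHO-fed animals the log2 fold change was -0.60 (SE 0.10) for miR-23b and -0.54 (SE 0.08) for miR-27b, and in EtOH-fed animals it was -0.38 (SE 0.10) and -0.46 (SE 0.08). The members of the chromosome 19 cluster passed the test in one diet each. miR-27a had a change of -0.44 (SE 0.08, limma adjusted p = 0.000131) on the CHO diet and of -0.13 (SE 0.08, adjusted p = 0.208) in EtOH-fed animals. miR-23a had a change of -0.21 (SE 0.10, adjusted p = 0.115) on the CHO diet and of -0.36 (SE 0.10, adjusted p = 0.0108) in EtOH-fed animals. On the CHO diet miR-23a was called only on leaving out single animals, at -0.26 without replicate 1 of the AM21-treated 0 h group and -0.28 without replicate 3 of the untreated 24 h group. In all, 3 of 5 members were called in CHO-fed animals, all lower (17.5% of all miRNAs lower), and 3 in EtOH-fed animals, all lower (9.79%).

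Whether the 24 h change differed between the diets was tested as an interaction, added after the values were seen. For miR-27a the change in EtOH-fed animals minus that in CHO-fed animals was 0.30 (SE 0.11, unadjusted p = 0.0111), the fall being smaller on the EtOH diet. The limma adjusted p over all miRNAs was 0.24. For miR-23a the difference was -0.15 (SE 0.14) and for miR-23b 0.22 (SE 0.14). limma called 0 of 5 members and 0% of all miRNAs for this interaction, with 1 member at an unadjusted p under 0.05. A difference between the diets in the 24 h response was therefore not shown for any member.

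miR-27a was the one member called between the diets. Over the 36 animals at 0 and 24 h, it was lower in EtOH-fed animals by 0.19 on the log2 scale (limma log2 fold change -0.19, SE 0.06, adjusted p = 0.024), or 12.2%. It was the only member called, beside 5.59% of all miRNAs called lower and 14% called in all. miR-27b had a log2 fold change of -0.15 (SE 0.06, adjusted p = 0.0791), and it was called under 4 of the alternative settings. miR-23a, miR-23b, and miR-24 had values of 0.07, 0.07, and 0.12, with adjusted p of 0.547, 0.538, and 0.296. Within sets 1, 2, and 3 the miR-27a difference was -0.23, -0.20, and -0.13.

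At 0 h, miR-27a in the 9 CHO-fed animals was 11.38 to 11.83 log2 CPM (median 11.59) and in the 9 EtOH-fed animals 11.06 to 11.44 (median 11.21). Only the edges of these ranges overlapped. A comparison of the diets at 0 h over all treatments, added after the values were seen, gave -0.34 (SE 0.08, limma adjusted p = 0.00522), and it called 1 of 5 members against 4.9% of all miRNAs lower. Of the 13 markers of liver cell types, miR-122 was the one called in this comparison, higher in EtOH-fed animals by 0.43 (adjusted p = 0.013), and over both times miR-194 (0.33) and miR-199a-5p (-0.28) were called. Their part in the miR-27a difference was not tested. At 24 h the ranges were 10.84 to 11.32 and 10.91 to 11.33, which coincided nearly throughout. The difference there was -0.03 (95% confidence interval -0.20 to 0.13), that of miR-122 was -0.12 (adjusted p = 0.69), and 0 of 5 members were called (1.4% of all miRNAs; 0 members at an unadjusted p under 0.05).

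Among untreated animals alone, miR-27a at 0 h was 11.83, 11.46, and 11.59 in the CHO group and 11.35, 11.08, and 11.34 in the EtOH group. The groups did not overlap, as was the case for 9.09% of all miRNAs in this direction. The log2 fold change was -0.37 (SE 0.16, limma adjusted p = 0.215), so with 3 animals per diet it did not pass. With the saline animals added and treatment as a covariate, it was -0.41 (adjusted p = 0.0024). Over its alternatives the adjusted p of this comparison ran from 0.0024 to 0.586. For untreated EtOH-fed against CHO-fed animals, limma called 0 of 5 members at any time. The share of all miRNAs was 2.1% at 0 h and also at 24 h, and 0% at 6 h and also at 72 h. At an unadjusted p under 0.05 stood 1 member at 0 h and 0 members later.

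The untreated time course asked when after PHx the members changed. miR-23b and miR-27b were the members called in both diets at 72 h. All comparisons with 0 h in one diet use the same 3 animals at 0 h, so they are not independent of each other. Groups that did not overlap were common over all miRNAs: the share wholly below 0 h was 6.99% at 6 h, 6.99% at 24 h, and 18.2% at 72 h on the CHO diet, and 16.1%, 12.6%, and 16.1% on the EtOH diet.

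miR-23b in CHO-fed animals had log2 CPM of 12.82, 12.45, and 12.57 (0 h), 12.24, 12.60, and 12.23 (6 h), 12.13, 11.85, and 12.49 (24 h), and 11.70, 12, and 11.86 (72 h). In EtOH-fed animals it had 12.78, 12.70, and 12.92 (0 h), 12.44, 12.73, and 12.23 (6 h), 12.56, 12.09, and 12.41 (24 h), and 11.71, 11.90, and 11.96 (72 h). In both diets all animals of 72 h lay below all of 0 h and of 6 h, the latter as for 21.7% of all miRNAs in each diet. At 72 h against 0 h, miR-23b fell by 41.0% on the CHO diet (log2 fold change -0.76, SE 0.19, limma adjusted p = 0.00882). On the EtOH diet it fell by 47.9% (log2 fold change -0.94, SE 0.19, adjusted p = 0.00117). The call in EtOH-fed animals held under all 15 alternatives, and the call in CHO-fed animals under 14, the exception being a fit on only the animals compared.

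From 6 to 72 h, within set 4, miR-23b fell again, with a log2 fold change of -0.50 on the CHO diet (SE 0.19, limma adjusted p = 0.046) and of -0.61 on the EtOH diet (SE 0.19, adjusted p = 0.0126). It was the only one of 5 members called. On the CHO diet 30.8% of all miRNAs were called, 16.1% lower and 14.7% higher, and on the EtOH diet 37.1%, 15.4% lower and 21.7% higher. The CHO call was lost on leaving out replicate 4_1 (-0.56) or 4_2 (-0.38) of 6 h or replicate 4_7 (-0.43), 4_8 (-0.57), or 4_9 (-0.51) of 72 h. The animals 4_1 and 4_2 had totals of 87009 and 87256 counts. The EtOH call was lost without replicate 4_5 of 6 h (-0.48) or 4_10 of 72 h (-0.54).

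miR-27b in CHO-fed animals had 14.13, 13.84, and 14.19 (0 h) and 13.53, 13.74, and 13.79 (6 h). It then had 13.59, 13.36, and 13.64 (24 h) and 13.51, 13.81, and 13.52 (72 h). In EtOH-fed animals it had 14.17, 13.89, and 14.11 (0 h), 13.67, 13.56, and 13.65 (6 h), 13.62, 13.46, and 13.47 (24 h), and 13.53, 13.49, and 13.43 (72 h). In both diets every animal after PHx lay below every animal at 0 h. At 72 h the log2 fold change was -0.44 in CHO-fed animals (SE 0.15, limma adjusted p = 0.0418) and -0.57 in EtOH-fed animals (SE 0.15, adjusted p = 0.00814). The EtOH call held under all 15 alternatives. The CHO call was lost with RLE size factors (-0.45), with only the groups compared (-0.44), and without replicate 1 (-0.40) or 3 (-0.37) of 0 h or replicate 4_7 (-0.38) or 4_9 (-0.39) of 72 h.

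Before 72 h, miR-27b had log2 fold changes of -0.37 (6 h) and -0.52 (24 h) on the CHO diet and of -0.43 and -0.54 on the EtOH diet, with limma adjusted p of 0.154, 0.0616, 0.0588, and 0.0674. These values were close to those at 72 h. CHO-fed animals of 0 and 24 h that share a replicate number also shared deviations in part (r = 0.12, 0.30, and 0.28). In a fit blocked on that number, miR-27b at 24 h had a limma adjusted p of 0.0228 (0.000417 to 0.357 over its alternatives), so that 1 member was called in place of 0. The CHO group at 0 h held the animal with the fewest counts, replicate 2 with 58168. Without it, miR-27b was called on the CHO diet at 6 h (-0.47) and at 24 h (-0.63), and without replicate 3 of 24 h it was called at 24 h (-0.58). Without replicate 2 of 0 h on the EtOH diet (92245 counts) it was called at 6 h (-0.51).

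miR-27a in CHO-fed animals had 11.83, 11.46, and 11.59 (0 h), 11.07, 11.14, and 11.22 (6 h), 11.16, 11.17, and 11.32 (24 h), and 11.11, 11.41, and 10.87 (72 h). Every animal after PHx lay below the 3 at 0 h. The change at 72 h was -0.50 (SE 0.16, limma adjusted p = 0.0287), and it was not called with only the groups compared (-0.50), with the log10 total count as a covariate (-0.51), or without replicate 1 of 0 h (-0.40) or replicate 4_7 (-0.49) or 4_9 (-0.37) of 72 h. The change at 6 h was -0.48 (SE 0.16, adjusted p = 0.0632), and it was called without the 0 h animal of 58168 counts (-0.57). In EtOH-fed animals miR-27a had 11.35, 11.08, and 11.34 (0 h), 10.93, 11.09, and 11.13 (6 h), 10.91, 11.07, and 11.09 (24 h), and 10.87, 10.79, and 11.03 (72 h). The log2 fold changes there were -0.21, -0.23, and -0.36, with adjusted p of 0.38, 0.442, and 0.116.

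miR-23a in EtOH-fed animals had 13.45, 13.45, and 13.66 (0 h), 13.30, 13.23, and 13.21 (6 h), 13.14, 12.98, and 13.07 (24 h), and 13.09, 13.08, and 12.90 (72 h). All 3 later groups lay below that of 0 h. The change at 72 h was -0.49 (SE 0.17, limma adjusted p = 0.0456). It was not called with only the groups compared (-0.49) or on leaving out any one of the 6 animals, with values of -0.53 to -0.42 and adjusted p of 0.0561 to 0.149. In CHO-fed animals miR-23a had 13.42, 13.13, and 13.50 (0 h) and 13.16, 13.52, and 13.28 (72 h), which overlapped. The change was -0.04 there (SE 0.17, 95% confidence interval -0.38 to 0.31). The difference between the diets in the 72 h change of miR-23a was -0.46 (SE 0.24, limma adjusted p = 0.639 for the interaction), and so it was not shown to differ.

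miR-24 in CHO-fed animals had 10.69, 10.32, and 10.71 (0 h) and 10.67, 10.97, and 10.86 (72 h). In EtOH-fed animals it had 10.66, 10.62, and 10.57 (0 h) and 10.86, 10.76, and 10.95 (72 h). The EtOH groups did not overlap at 6, 24, or 72 h against 0 h, each later animal being higher, as for 11.9%, 18.2%, and 22.4% of all miRNAs. On the CHO diet the animals of 6 h also lay above all of 0 h, as for 13.3% of all miRNAs, whereas those of 24 and 72 h overlapped them. The log2 fold changes ran from 0.17 to 0.26 over the 6 comparisons with 0 h, and none passed the test (limma adjusted p of 0.188 to 0.456).

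Counted over the members, limma called 0 of 5 at 6 h in CHO-fed animals (2.1% of all miRNAs, 2 members at an unadjusted p under 0.05) and 0 in EtOH-fed animals (11.2% in all, 8.39% lower and 2.8% higher, 1 member). At 24 h it called 0 in either diet (1.4% in each), with 3 members at an unadjusted p under 0.05 in each. At 72 h it called 3 in each diet, all lower. Of all miRNAs, 9.79% were lower and 8.39% higher on the CHO diet, and 7.69% lower and 10.5% higher on the EtOH diet. These were miR-23b, miR-27a, and miR-27b on the CHO diet and miR-23a, miR-23b, and miR-27b in EtOH-fed animals. The F test over all times called miR-23b, miR-27a, and miR-27b in CHO-fed animals (32.9% of all miRNAs) and miR-23b and miR-27b in EtOH-fed animals (39.9%). The interaction of diet and time called 0 members and 0% of all miRNAs at 6, 24, and 72 h, with 0 members at an unadjusted p under 0.05.

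**Figure D2:**
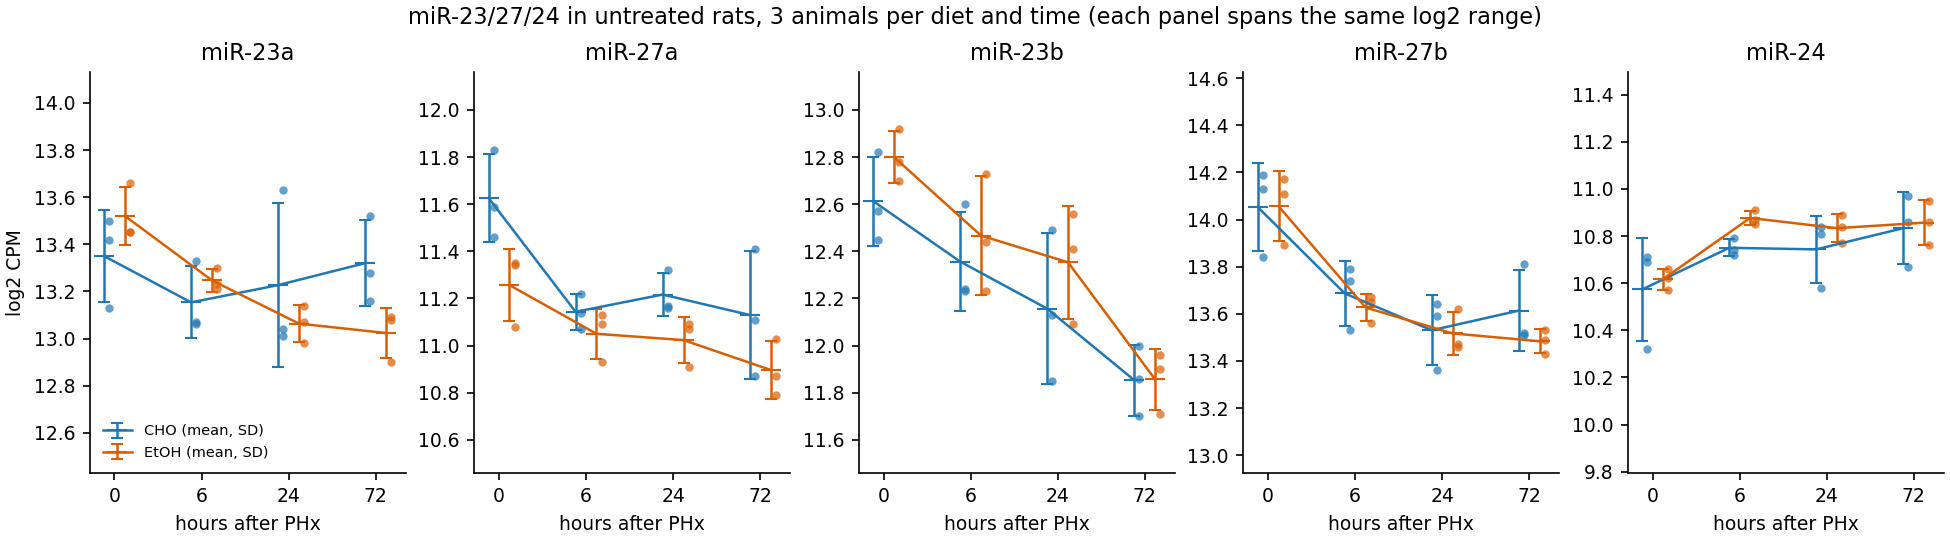
Log2 CPM of the 5 miRNAs against hours after PHx in untreated animals, as points for 3 animals per diet and time and as mean and SD joined by lines (times are evenly spaced on the axis). miR-23b reached its lowest values at 72 h, 11.70 to 12 on the CHO diet and 11.71 to 11.96 in EtOH-fed animals, and miR-27b at 6 h, where it did not pass the test, lay at 13.53 to 13.79 and 13.56 to 13.67.

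AM21 was compared with untreated and saline-treated animals over both diets and times. In the 12 AM21-treated and the 24 other animals, miR-23a had a log2 fold change of 0.16 (SE 0.08, unadjusted p = 0.0472, limma adjusted p = 0.324). The other members had values of -0.09 for miR-27a, 0.00 for miR-23b, 0.06 for miR-27b, and 0.01 for miR-24. The 95% confidence interval of miR-23a, 0.00 to 0.31, did not reach below 0 before adjustment. The intervals of the others ran from -0.22 to 0.03 for miR-27a, from -0.15 to 0.16 for miR-23b, from -0.07 to 0.19 for miR-27b, and from -0.17 to 0.18 for miR-24. limma called 0 of 5 members beside 5.59% of all miRNAs, with 1 member at an unadjusted p under 0.05.

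Against saline alone, limma called 0 members (4.9% of all miRNAs, 0 at an unadjusted p under 0.05), and the values ran from -0.10 to 0.15. For saline against untreated animals it called 0 members (1.4%, 1 at an unadjusted p under 0.05), the largest value being 0.16 for miR-27b (SE 0.07, adjusted p = 0.525). The interaction of AM21 and time called 0 members (0%, 0 at an unadjusted p under 0.05). The intervals limit, but do not exclude, a change of these miRNAs under AM21.

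**Figure D3:**
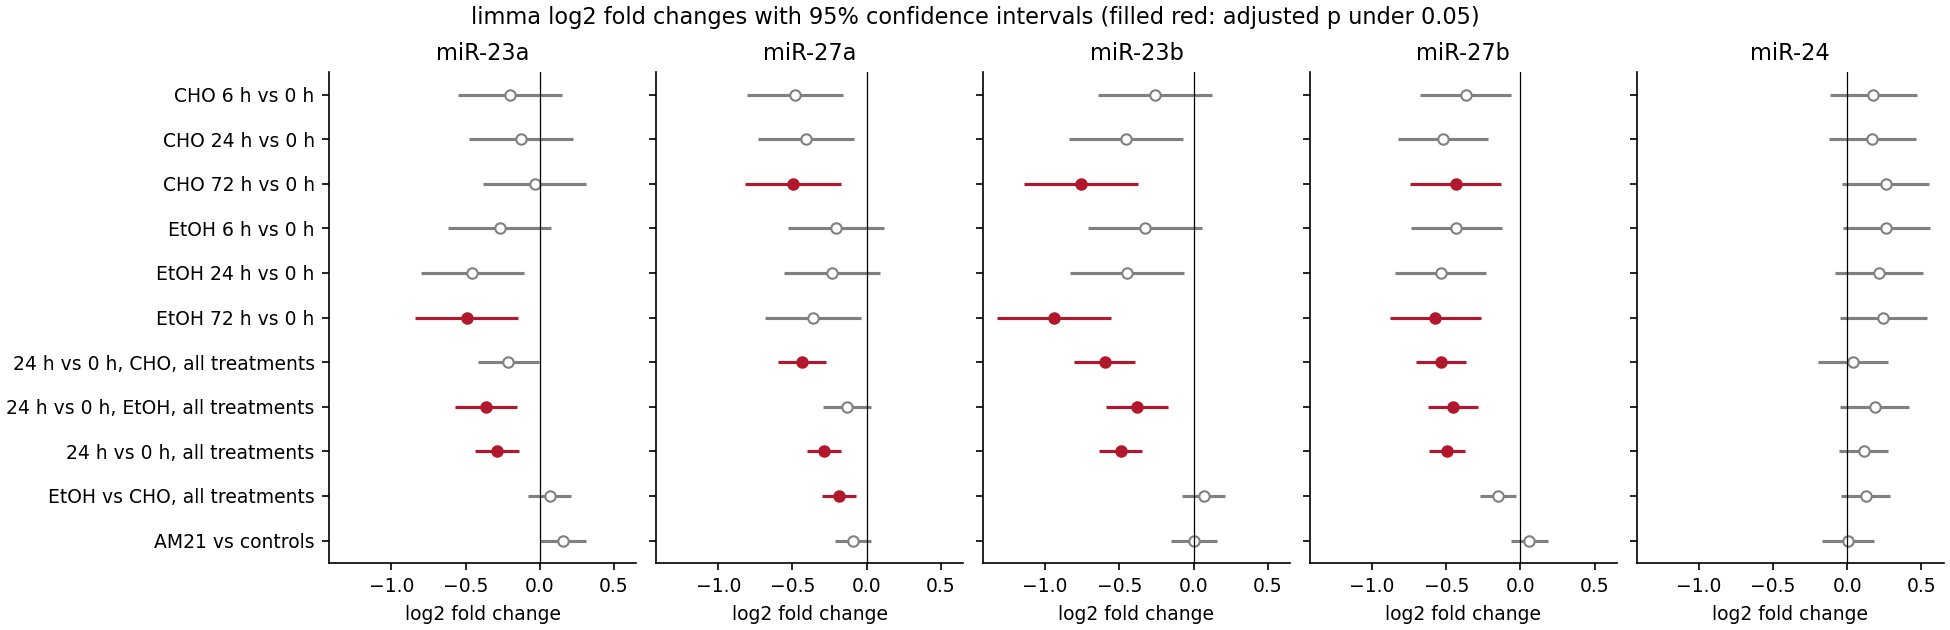
limma log2 fold changes with 95% confidence intervals for 11 comparisons of the 5 miRNAs, filled red where the adjusted p was under 0.05. miR-23a, miR-27a, miR-23b, and miR-27b all lie left of 0 in the 9 comparisons of a later time with 0 h, which share animals. miR-24 lies right of 0 in all of these without passing the test, and the AM21 comparison holds no called member.

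Over both diets, the ratio of miR-27b to its paralog miR-27a was lower at 24 h. The log2 ratio of miR-27b to miR-27a within an animal was 2.30 to 3.03 at 0 h (mean 2.74, SD 0.17, n = 18) and 2.19 to 2.85 at 24 h (mean 2.53, SD 0.18, n = 18). The means differed by -0.21 (permutation test over animals, two-sided, 100000 resamples, p = 0.00144, adjusted over 4 tests p = 0.00576). The log2 ratio of miR-23b to miR-23a went from a mean of -0.76 (SD 0.31) to -0.97 (SD 0.20), a difference of -0.20 (permutation p = 0.0262, adjusted p = 0.0524). Without replicate 1 of the AM21-treated CHO group at 0 h, this difference was -0.17 (permutation p = 0.0503). With the time labels permuted only within sets 1 to 3, the adjusted p was 0.0232 for miR-23 and 0.00728 for miR-27, so the call for miR-23 depended on how the sets were treated. Between the diets the ratios differed by 0.00 for miR-23 and 0.04 for miR-27 (adjusted p of 0.983 and 0.795). All tests of ratios were chosen after the values were seen, and the ratios compare changes, since probe efficiency sets their level.

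The diets made unlike contributions to these pooled values. The miR-23 ratio had means of -0.67 (SD 0.34) at 0 h and -1.06 (SD 0.16) at 24 h on the CHO diet, a difference of -0.39, and of -0.86 (SD 0.27) and -0.88 (SD 0.20) on the EtOH diet, a difference of -0.02. The miR-27 ratio had means of 2.66 (SD 0.21) and 2.56 (SD 0.22) on the CHO diet, a difference of -0.10, and of 2.81 (SD 0.08) and 2.49 (SD 0.14) on the EtOH diet, a difference of -0.32 (9 animals per mean). The change on the EtOH diet minus that on the CHO diet was 0.37 for miR-23 (permutation p = 0.032) and -0.23 for miR-27 (permutation p = 0.0572), each with p = 0.0572 after adjustment over both tests. A difference between the diets thus did not pass for either ratio.

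In untreated CHO-fed animals at 72 h the log2 ratio of miR-23b to miR-23a was -1.52, -1.46, and -1.41, and in those at 0 h it was -0.93, -0.68, and -0.60. In untreated EtOH-fed animals it was -1.38, -1.18, and -0.94 at 72 h and -0.75, -0.74, and -0.67 at 0 h. The groups of 0 and 72 h did not overlap in either diet, but they also came from different sets. The untreated animals of 6 h share their set with those of 72 h. On the CHO diet the ratio at 6 h was -1.10, -0.82, and -0.47, wholly above that at 72 h. On the EtOH diet it was -0.98, -0.86, and -0.50 at 6 h, which overlapped that at 72 h. How often other ratios separate in this way was not counted. These time points were not tested for the ratio.

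**Figure D4:**
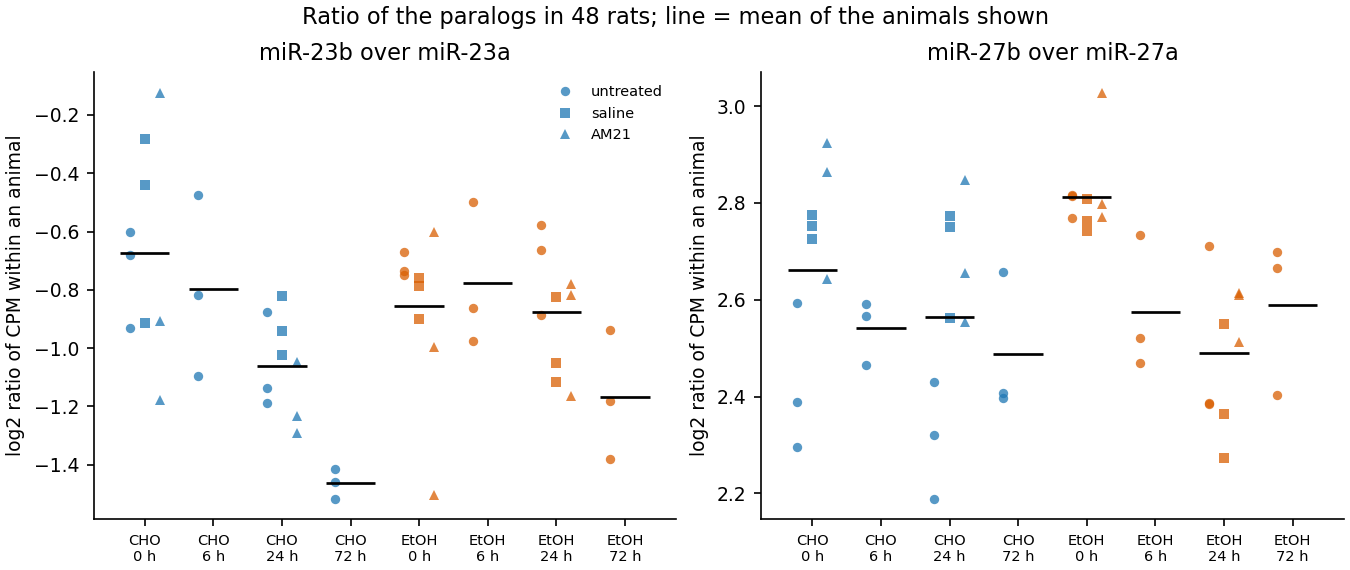
Log2 ratio of miR-23b to miR-23a and of miR-27b to miR-27a within each of the 48 animals, by diet and time, with treatments as symbols and the mean as a line. The miR-27 ratio had a mean of 2.74 at 0 h and 2.53 at 24 h over both diets, and the miR-23 ratio was lowest in CHO-fed animals at 72 h, at -1.52 to -1.41.

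Over the 16 group means, miR-23a ranged over 0.67 on the log2 scale, miR-27a over 0.76, miR-23b over 0.98, miR-27b over 0.92, and miR-24 over 0.37. The highest mean of each miR-23 and miR-27 member was at 0 h and the lowest at 72 h. For miR-23a these were 13.69 in AM21-treated EtOH-fed animals at 0 h and 13.03 in EtOH-fed animals at 72 h, and for miR-27a 11.65 in saline-treated CHO-fed animals at 0 h and 10.89 in EtOH-fed animals at 72 h. For miR-23b they were 12.84 in AM21-treated CHO-fed animals at 0 h and 11.85 in CHO-fed animals at 72 h, and for miR-27b 14.40 in saline-treated CHO-fed animals at 0 h and 13.48 in EtOH-fed animals at 72 h. miR-24 was highest in EtOH-fed animals at 6 h (10.88) and lowest in saline-treated CHO-fed animals at 0 h (10.51).

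Neighbours in the order of group means mostly could not be told apart. For miR-23a, miR-23b, and miR-24, all 15 steps from one group to the next were smaller than the pooled SD within groups (0.18, 0.19, and 0.21 log2). For miR-27a this held for 13 of 15 steps (pooled SD 0.14) and for miR-27b for 12 of 15 (pooled SD 0.13).

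How members followed each other across groups is given as a description. Pearson's r over the 16 group means was 0.83 for miR-27a with miR-27b, 0.82 for miR-23b with miR-27b, 0.72 for miR-23a with miR-23b, and 0.50 for miR-23a with miR-27a. miR-24 had negative r with all the others, from -0.71 with miR-27b to -0.36 with miR-23a. Once group means were removed, over the 48 animals, r was 0.56 for miR-27a with miR-27b, 0.26 for miR-23b with miR-27b, 0.20 for miR-23a with miR-27a, and 0.11 for miR-23a with miR-23b. miR-24 then had r of 0.39 with miR-23b, 0.10 with miR-23a, 0.08 with miR-27a, and -0.17 with miR-27b. The points share the scaling of each animal and the time course, and near-identical sequences share what their probes may cross-read.

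Of the other 142 miRNAs, the 5 most alike miR-23b over the 16 group means were miR-22 (r = 0.92), miR-10a-5p (0.85), miR-27b (0.82), miR-100 (0.74), and miR-23a (0.72). The least alike were miR-34a (-0.86), a target of p53, and miR-93 (-0.89), of a cluster that promotes proliferation. For miR-22 and miR-93 the likeness lay in the group means, since r with group means removed was 0.04 and -0.06, whereas for miR-34a it was -0.57.

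The 5 most alike miR-27b were miR-99a (0.90), miR-27a (0.83), miR-23b (0.82), miR-10a-5p (0.80), and miR-499 (0.80), and the least alike were miR-351 (-0.80) and miR-675 (-0.83), which is made from the H19 transcript. For miR-27a they were miR-27b (0.83), miR-26a (0.81), miR-10a-5p (0.80), miR-99a (0.80), and miR-3593-3p (0.76), and at the other end miR-122 (-0.93) and miR-675 (-0.94). miR-23a was most like miR-99a (0.81), miR-22 (0.77), miR-27b (0.74), miR-23b (0.72), and miR-146a (0.70) and least like miR-93 (-0.83) and miR-132 (-0.85). miR-24 was most like miR-31 (0.84), miR-30d (0.61), miR-185 (0.61), miR-425 (0.61), and miR-409-3p (0.59) and least like miR-499 (-0.71) and miR-27b (-0.71). With group means removed, r for the 5 most alike ran from 0.19 to 0.56 for miR-27b and from 0.07 to 0.56 for miR-27a. It ran from -0.19 to 0.22 for miR-23a and from -0.26 to 0.62 for miR-24. By Spearman's rho over group means, miR-122 with miR-27a was -0.74, at rank 131 of 142.

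Markers of liver cell types were read beside the members. miR-122, the main hepatocyte miRNA, rose at 24 h by 0.30 (SE 0.09, limma adjusted p = 0.00493). By diet its log2 fold change was 0.57 (adjusted p = 0.000573) in CHO-fed and 0.03 (adjusted p = 0.891) in EtOH-fed animals, where that of miR-27a was -0.44 and -0.13. For the interaction of miR-122 with diet the adjusted p was 0.155. Over animals with group means removed, miR-122 had r = -0.51 with miR-27a, -0.24 with miR-27b, -0.20 with miR-23b, -0.43 with miR-24, and 0.24 with miR-23a. Of the 3 hepatocyte markers it was the one called, and their summed level was 332267 to 701217 CPM per animal at 0 h and 566264 to 874395 at 24 h. The endothelial miR-126 had a log2 fold change of -0.21 (SE 0.10, adjusted p = 0.0819), and its level was 18149 to 46454 CPM at 0 h and 23892 to 43856 at 24 h.

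Of the 4 measured stellate cell markers, miR-145 and miR-199a-3p fell by 0.27 and 0.24, and miR-199a-5p and miR-143 rose by 0.26 and 0.23. Their summed level was 14214 to 24946 CPM at 0 h and 13099 to 20287 at 24 h. The red blood cell markers miR-451 and miR-144 had changes of -0.63 (adjusted p = 0.00655) and -0.49 (adjusted p = 0.111), with sums of 1019 to 5974 CPM at 0 h and 407 to 4360 at 24 h. Of the 3 measured leukocyte markers, miR-223 rose by 0.41 and miR-150 fell by 0.50, with sums of 2082 to 4148 and 2008 to 3331 CPM. No marker was at 0 in any animal, and the part of these markers in the members' changes was not tested.

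Markers also moved at 72 h, where miR-23b and miR-27b fell in both diets. Against 0 h, miR-451 had a log2 fold change of -1.73 on the CHO diet and -0.90 on the EtOH diet and miR-145 of -0.57 and -0.89, all called. miR-144 was called on the CHO diet (-1.47) and miR-150 on the EtOH diet (-0.78), whereas miR-126 had values of -0.16 and 0.04 and was not called. The other measured stellate markers, miR-143, miR-199a-3p, and miR-199a-5p, ran from -0.25 to 0.53 and were not called. From 6 to 72 h, where miR-23b fell, miR-145 fell by 0.99 and 1.54 on the log2 scale, miR-150 fell by 0.98 and 1.01, and miR-192 and miR-142-3p rose on both diets. miR-126 rose by 1.05 on the EtOH diet and had 0.62 on the CHO diet, where it was not called (limma adjusted p = 0.114). miR-451 fell by 1.76 and miR-144 by 1.45 on the CHO diet. On the CHO and EtOH diets, miR-199a-3p had values of 0.49 and 0.37, miR-199a-5p of 0.30 and 0.42, and miR-143 of 0.22 and -0.14. None of these was called, so miR-145 was the one stellate marker called. The endothelial level, that of miR-126 alone, was 13134 to 21515 CPM at 6 h and 25492 to 36836 at 72 h. The summed stellate level was 22775 to 31107 and 12836 to 21613 CPM. Neither overlapped between these times. Within a diet, 72 h lay wholly above 6 h for 22.4% (CHO) and 25.9% (EtOH) of all miRNAs. It lay wholly below for 21.7% in each diet. The summed levels of hepatocyte (518485 to 778010 and 576072 to 785173 CPM), red blood cell (972 to 2257 and 550 to 1898 CPM), and leukocyte markers (2490 to 3757 and 2589 to 3219 CPM) overlapped. The part of these markers at 72 h was not tested.

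2 wider lists that touch on the known roles of the members were counted beside them, as a description. They were chosen with earlier results of these data known, so their counts are not independent support for any role. Of 12 measured miRNAs with roles in vessel growth, 7 rose and 0 fell at 24 h over all treatments, where 29.4% of all miRNAs rose and 22.4% fell, with a median log2 fold change of 0.36 against 0.05 for all miRNAs. Those with the smallest adjusted p were miR-17-5p (0.62), miR-34a (0.74), and miR-19b (0.87). The endothelial miR-126, of the same list, had -0.21 and was not called. At 72 h, 5 of the 12 rose on the CHO diet (8.39% of all miRNAs) and 6 on the EtOH diet (10.5%), and 0 fell in either diet. At 6 h on the EtOH diet 0 rose and 3 fell (8.39% of all miRNAs), namely miR-19a (-1.85), let-7f (-0.65), and miR-126 (-1.01), and on the CHO diet 0 were called.

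Of 23 measured miRNAs known, like miR-23, to be repressed by MYC, 6 rose and 7 fell at 24 h, near the 29.4% and 22.4% of all miRNAs, with a median of -0.08. miR-34a (0.74), miR-150 (-0.50), and miR-30a (0.46) led by adjusted p. At 72 h, 2 rose and 1 fell in CHO-fed animals, beside 8.39% and 9.79% of all miRNAs. In EtOH-fed animals 2 rose and 4 fell, beside 10.5% and 7.69%. Those with the smallest adjusted p were miR-16 (1.358 and 1.255 in the 2 diets), miR-34a (0.789 and 1.297), and miR-22 (-0.61 and -0.89).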

How the data were processed

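Liver RNA of 48 rats was assayed with NanoString nCounter probes by the study. The deposited table holds log2 CPM of 143 miRNAs, which the authors made from raw counts by TMM scaling with edgeR and the voom transformation of limma. Whole counts were recovered from these values and voom's pseudocount of 0.5. Every count lay within 0.001 of a whole number.

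Groups came from the sample labels. limma 3.58.1 (R 4.3.3; lmFit and eBayes, one mean per group) was fitted to the deposited log2 CPM of all 143 miRNAs, and p-values were adjusted by Benjamini-Hochberg over all of them within each of 28 comparisons, with calls under 0.05. The fit for time and diet held 24 untreated animals (8 groups), and that over treatments 36 animals of 0 and 24 h (12 groups). Of the comparisons, 3 were added after the values were seen, as were the paralog ratios, tested by permutation over all animals, within sets, and between diets within times (scipy 1.17.1). The members and lists were chosen with earlier results of these data known. All members were named, with the 5 most and 2 least alike miRNAs by Pearson's r over group means, and at most 3 per list by adjusted p. Nothing in the labels says that animals shared a litter or cage, and p-values measure the spread between these animals.

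Same-numbered animals deviated together in every pair for CHO-fed animals at 24 and 0 h (r = 0.12, 0.30, and 0.28) and between the diets at 0 h (r = 0.52, 0.79, and 0.65). Between the diets at 24 h r was 0.26, 0.24, and -0.27, and only 10 of 66 pairs of groups had all 3 correlations above 0.1. The pairing rests on these correlations and on numbers in the labels. The rats were pair-fed, but the labels do not say which animals were partners. Counting errors cover counting alone. Steps were tested on simulated data. Sequences and loci were read from RefSeq (GRCr8), in which all 5 names matched as 3p arms. Alternatives were other scalings, a filter of 50 counts in 3 animals, voom weights, other sets of animals, the log10 total count as a covariate, robust eBayes, the replicate number as a block, and leaving out animals with fewer than 100000 counts or each animal in turn.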

Additional observations from a re-analysis of the deposited data

How the results depend on the processing

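Over the alternatives run, 0 of the 20 called member values changed sign, and 6 of them lost their call under at least 1 setting. Of 110 values not called, 38 changed sign under at least 1 setting and 13 gained a call. All 4 calls at 24 h over all treatments held under each of 46 alternatives, as did that of miR-27a between the diets. Another scaling moved the median log2 fold change of all miRNAs by at most 0.08 (RLE size factors) or 0.15 (the 100 highest).

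The number of members called changed by over 1.5 times as follows. At 6 h in CHO-fed animals it went from 0 to 1 with all 48 animals and to 2 with the log10 total count as a covariate. At 24 h on either diet it went from 0 to 1 with scaling to the 100 highest, voom weights, all 48 animals, the log10 total, the replicate block, or without animals under 100000 counts, and to 3 with saline animals added. At 6 h in EtOH-fed animals it went from 0 to 1 with voom weights, all 48 animals, the log10 total, or without animals under 100000 counts. On the CHO diet, at 72 h and in the F test, it went from 3 to 0 with only the groups compared, which leaves fewer animals to estimate the spread. From 6 to 72 h in CHO-fed animals it went from 1 to 0 with RLE size factors, only the groups compared, the log10 total, or without animals under 100000 counts. Between the diets it went from 0 to 1 at 0 h with saline animals added, and from 1 to 2 over all treatments with scaling to the 100 highest, voom weights, all 48 animals, or without animals under 100000 counts, and from 1 to 2 at 0 h over all treatments with scaling to the 100 highest. Smaller changes were 3 to 2 at 72 h on the CHO diet, with RLE size factors (miR-27b lost) or the log10 total (miR-27a lost), and 3 to 2 at 72 h on the EtOH diet with only the groups compared (miR-23a lost). The cause of these changes was not tested.

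On leaving out each animal in turn, the number called ran from 0 to 2 at 6 h and 0 to 1 at 24 h in CHO-fed animals, 1 to 3 at 72 h, 0 to 1 at 6 h in EtOH-fed animals, 2 to 2 at 72 h, 0 to 1 from 6 to 72 h in each diet, 0 to 3 and 1 to 2 for the F tests in CHO-fed and EtOH-fed animals, and 3 to 4 at 24 h in CHO-fed animals over all treatments. The replicate block changed no call other than that of miR-27b at 24 h in untreated animals, where the EtOH value of -0.54 had an adjusted p of 0.0192 (0.0016 to 0.239 over its alternatives). In EtOH-fed animals the same-numbered correlations were 0.20, 0.29, and -0.06, so deviations were not shared in every pair there. The ratio of miR-23b to miR-23a between the diets ran from -0.0226 to 0.0461 on leaving out each animal, and the 72 h change of miR-23a on the CHO diet from -0.144 to 0.044. By Spearman's rho in place of Pearson's r, the first-ranked miRNA was the same for miR-23b (miR-22) and miR-24 (miR-31) and another for miR-23a (miR-27b), miR-27a (miR-99a), and miR-27b (miR-23b). Counts of 81 to 430 limit the precision most for miR-24.

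Counts over all miRNAs moved by over 1.5 times in several comparisons. Over settings other than leaving out 1 animal, 3 calls became 1 to 20 at 6 h, 2 became 0 to 40 at 24 h, and 26 became 5 to 34 at 72 h on the CHO diet. On the EtOH diet 16 calls became 1 to 59 at 6 h and 2 became 0 to 24 at 24 h. From 6 to 72 h on the CHO diet 44 became 8 to 49, and in its F test 47 became 29 to 56. Between the diets in untreated animals 3 became 0 to 23 at 0 h, 0 became 0 to 1 at 6 h, and 3 became 0 to 6 at 24 h, and over all treatments 21 became 13 to 26 at 0 h and 2 became 1 to 7 at 24 h. For saline 2 became 0 to 2, and for AM21 by time 0 became 0 to 1. Leaving out 1 animal gave 0 to 46 in place of 3 at 6 h, 0 to 15 in place of 2 at 24 h, 11 to 34 in place of 26 at 72 h, and 23 to 42 in place of 44 from 6 to 72 h on the CHO diet, with 24 to 63 in place of 47 in its F test. It gave 0 to 42 in place of 16 at 6 h, 0 to 1 in place of 2 at 24 h, and 17 to 21 in place of 26 at 72 h on the EtOH diet, 5 to 10 in place of 8 for AM21, 4 to 8 in place of 7 for AM21 against saline, and 0 to 9 in place of 0 for 24 h by diet. The ratio tests by diet and within sets and the settings that left out animals under 100000 counts were chosen after the data were seen.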
